A study of Mus musculus with 4 samples.

Results

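In the mouse kidney, 2527 regions of RNA polymerase II (Pol II) occupancy lay between genes and overlapped no region of the heart, the liver or the lung. They were chosen by measured values, namely the presence of a called region in the kidney list, the absence of an overlapping region (1 bp or more) in the other 3 lists, and a length of 750 bp to under 10 kb. They also had to lie on chromosomes 1 to 19 or X and more than 5 kb outside the span of every protein-coding gene. The kidney list held 88193 regions, of which 42666 had the required length and 7250 of those lay that far from genes. The 2527 regions were thus 2.87% of all kidney regions and 34.9% of the kidney regions between genes of the same lengths (95% exact Clopper-Pearson interval 33.8 to 36%). Such intervals here cover counting error only, and neighbouring regions are not independent of each other. The absence of a region in another organ means that none was called there, not that polymerase was lacking.

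The study profiled Pol II by ChIP-seq in 4 organs of C57BL/6 mice (heart, kidney, liver, lung), and its labels name no treatment or mutation. The flash-frozen organs of 2 mice were crosslinked and sheared in a plate of 96 wells by PIXUL, an ultrasound instrument, and precipitated with 4H8, an antibody to the repeated C-terminal tail of Pol II. Each organ had 1 list of regions (n = 1), so replicate error is unknown for every value and the organs are compared by description only. The kidney label was checked against marker genes: the median proximal tubule marker had 94.9% of its span inside kidney regions, and the median hepatocyte and cardiomyocyte marker 0%. Medians of other kidney lists were lower: 63% for loop of Henle and distal convoluted tubule and 21.3% for connecting tubule and collecting duct. For podocyte and juxtaglomerular genes the median was 3.59%. The lists were made with earlier results of these data known. The sources used here give neither the age and sex of the animals nor whether a list joins both of them.

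Pol II is found outside protein-coding genes at enhancers, which are transcribed into short unstable RNAs, at long non-coding RNA (lncRNA) genes, and downstream of genes where polymerase runs on past the site of polyadenylation. Enhancers can lie far from the gene they act on, and many are used in few cell types. The kidney is built mostly of nephron epithelium, in which the proximal tubule reclaims sugars, amino acids, phosphate and filtered proteins, and the loop of Henle, distal tubule and collecting duct adjust salt, acid and water. An occupied region between genes can belong to any of these kinds, and the lists do not separate them.

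Some of the regions held the annotated start of an lncRNA gene, and these are the places where a transcript can be named. Of the start windows in the sequence table, each with 250 bases before and 50 bases after an annotated start, 65 windows of 57 lncRNA genes lay wholly inside a kidney-only region. Printed here, from RefSeq on GRCm38.p6 (the assembly behind mm10), is the window in the region with the most tags among those that hold a whole start window (Gm35201). Also printed are windows of 6 of the lncRNA genes that had 50% or more of their span inside kidney regions and no region in the other organs. Others that met both conditions, such as Gm31867 (83.6% covered, region of 126.9 tags), are not printed. The sequences run 5′ to 3′ along the lncRNA, and the capitals mark the transcribed bases.
Gm35201, chr1:186137601-186137900, plus strand: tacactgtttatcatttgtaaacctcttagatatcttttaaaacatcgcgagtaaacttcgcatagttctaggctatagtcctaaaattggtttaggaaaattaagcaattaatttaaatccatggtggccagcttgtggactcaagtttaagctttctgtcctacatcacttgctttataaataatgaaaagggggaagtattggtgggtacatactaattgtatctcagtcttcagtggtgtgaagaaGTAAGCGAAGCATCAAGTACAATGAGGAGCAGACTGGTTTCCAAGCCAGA
Gm31183, chr3:97100842-97101141, plus strand: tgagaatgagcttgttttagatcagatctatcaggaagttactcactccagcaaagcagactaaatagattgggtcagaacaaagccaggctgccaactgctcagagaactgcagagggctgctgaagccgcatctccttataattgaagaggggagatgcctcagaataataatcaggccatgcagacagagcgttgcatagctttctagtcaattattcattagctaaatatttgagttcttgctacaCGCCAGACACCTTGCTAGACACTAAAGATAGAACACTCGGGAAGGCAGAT
Gm30944, chr3:85022666-85022965, plus strand: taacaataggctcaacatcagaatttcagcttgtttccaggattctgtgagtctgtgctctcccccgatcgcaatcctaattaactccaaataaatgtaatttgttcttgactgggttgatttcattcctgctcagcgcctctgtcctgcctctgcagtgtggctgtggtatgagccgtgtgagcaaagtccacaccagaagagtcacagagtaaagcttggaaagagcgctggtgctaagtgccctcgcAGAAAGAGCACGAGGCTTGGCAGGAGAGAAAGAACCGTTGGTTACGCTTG
Gm39742, chr1:191928320-191928619, plus strand: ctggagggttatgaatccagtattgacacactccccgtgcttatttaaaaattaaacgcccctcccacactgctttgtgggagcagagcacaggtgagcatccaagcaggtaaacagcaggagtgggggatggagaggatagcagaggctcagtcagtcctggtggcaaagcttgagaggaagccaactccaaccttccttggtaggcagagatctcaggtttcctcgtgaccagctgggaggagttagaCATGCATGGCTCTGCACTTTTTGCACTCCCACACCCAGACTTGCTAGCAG
Gm41061, chr13:112041494-112041793, minus strand: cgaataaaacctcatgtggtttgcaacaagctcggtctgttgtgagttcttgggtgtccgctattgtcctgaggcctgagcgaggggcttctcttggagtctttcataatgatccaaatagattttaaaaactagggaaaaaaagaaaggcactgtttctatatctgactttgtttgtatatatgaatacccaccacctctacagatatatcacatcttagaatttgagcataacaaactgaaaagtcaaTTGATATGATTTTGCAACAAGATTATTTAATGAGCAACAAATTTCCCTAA
Gm35317, chr2:77323861-77324160, minus strand: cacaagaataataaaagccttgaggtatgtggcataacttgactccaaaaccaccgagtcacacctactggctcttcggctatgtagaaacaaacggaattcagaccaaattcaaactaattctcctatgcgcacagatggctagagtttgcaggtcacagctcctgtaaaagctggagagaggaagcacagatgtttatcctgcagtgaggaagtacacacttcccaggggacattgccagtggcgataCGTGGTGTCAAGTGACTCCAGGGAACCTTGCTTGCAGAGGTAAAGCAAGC
Gm13652, chr2:75137926-75138225, minus strand: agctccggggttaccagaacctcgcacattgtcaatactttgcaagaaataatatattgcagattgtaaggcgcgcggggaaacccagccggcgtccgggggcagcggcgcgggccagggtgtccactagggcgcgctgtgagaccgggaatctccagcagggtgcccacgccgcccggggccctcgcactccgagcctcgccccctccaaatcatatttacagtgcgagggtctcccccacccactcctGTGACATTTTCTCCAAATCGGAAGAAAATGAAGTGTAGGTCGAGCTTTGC

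These starts differed in base composition. The Gm13652 window printed above had 23 CpG dinucleotides and 59.7% G+C, whereas that of Gm41061 had 4 CpG and 36.7% G+C. Gm13652 has 5 annotated starts inside the same region, and the printed one has the most CpG; the lowest of them has 4 CpG and 38% G+C. Low CpG content was the more frequent type: 5 of the 65 windows (7.69%) held 10 or more CpG, against 19.1% of all 11574 lncRNA windows and 57.3% of the 21045 protein-coding windows in the table. The median G+C content was 47% (range 34.7 to 67.3%), beside 48.3% for all lncRNA windows and 56.7% for protein-coding windows. All lncRNA windows are an unlike set, since they are not limited to starts far from protein-coding genes. They belong to 9520 genes, whereas 6455 lncRNA genes lie more than 5 kb outside protein-coding genes. The part of this in the differences was not tested.

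Short sequences known to be bound by factors active in kidney epithelium were looked for on both strands of these windows. The letters CAAAGTCCA, bound by HNF4, stood in 2 of the 65 windows (3.08%), in 0.518% of all lncRNA windows and in 0.478% of all 32619 windows of the table. In the Gm30944 window printed above they began 66 bases before the start, and the other window with them was that of Gm31656. ACANNNTGT (glucocorticoid receptor) was present in 7 windows (10.8%, lncRNA windows 8.46%, all windows 6.89%), TGANTCA (AP-1) in 10 (15.4%, lncRNA 9.31%, all 7.85%) and TCAAGGTCA (oestrogen-related receptors) in 1 (1.54%, lncRNA 0.588%, all 0.426%). GCCNNNGGC (AP-2) was present in 5 (7.69%, lncRNA 10.6%, all 16.7%), and GTTAATNAT (HNF1) in none, where 0.95% of lncRNA windows and 0.806% of all windows had it. These are matches of letters in a small number of windows, several of which overlap each other, and they were not tested. The lncRNA windows set beside them are again not limited to starts far from protein-coding genes.

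Most kidney-only regions were short and faint, with a small number of long, heavily occupied ones. Tag counts, which the authors scaled to 10000000 tags per library, had a median of 21.7 (quartiles 16.3 and 34.1, range 7.84 to 302.0), and lengths a median of 1312 bp (quartiles 912.5 and 1954 bp). The 1518 regions below 1.5 kb (60.1%) had a median of 17.2 tags and the 55 regions of 6 kb or more (2.18%) a median of 165.5 tags. Tag count therefore ranked the regions much as length did (Spearman's rho across regions 0.94), while the caller's score followed length weakly (rho 0.06). Per kilobase the range was narrower, with a median of 17.3 tags and limits of 10.4 and 36.9. Kidney regions between genes that overlapped another organ had similar density (median 17.5 tags per kb) and were longer (median 1684 bp), and kidney-only regions inside genes had 17.0 tags per kb and 1245 bp.

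**Figure D1:**
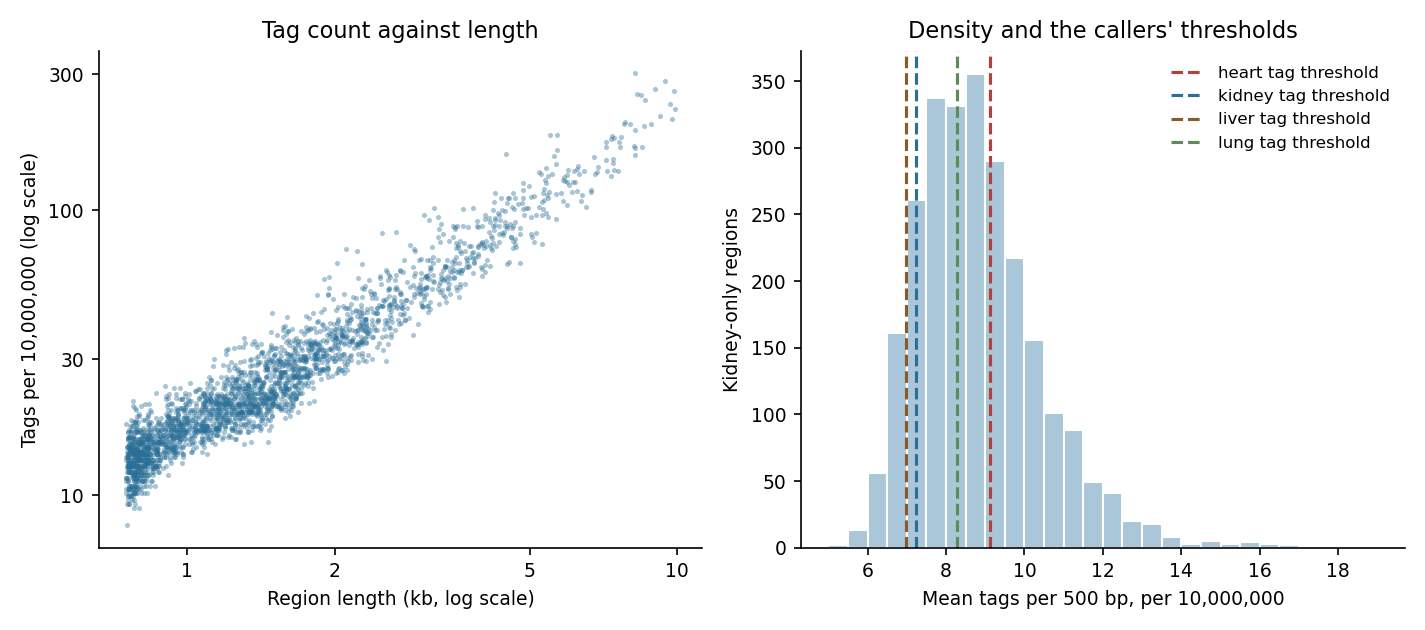
Left, tag count (per 10,000,000, log scale) against length (kb, log scale) for the 2527 kidney-only regions between genes, 1 point per region. Right, the number of these regions by mean tags per 500 bp, with the tag threshold that each organ's list states as a dashed line; 62.9% of the regions lay below the heart line and 8.86% below the liver line.

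The stated thresholds limit how the absence of a region in another organ can be read. The lists rested on 9880184 to 20058183 tags, and the stated thresholds for a window of 500 bp were 9.11 (heart), 7.23 (kidney), 6.98 (liver) and 8.27 (lung) tags per 10000000. The mean density of 1590 kidney-only regions (62.9%) was below the heart threshold, that of 1001 (39.6%) below the lung threshold and that of 224 (8.86%) below the liver threshold, so an equal mean density in heart or lung would often have been under the stated threshold. It was below the kidney's own threshold for 317 regions (12.5%), since single windows of a region can exceed its mean. At or above all 4 thresholds were 937 regions (37.1%, interval 35.2 to 39%). A region of another organ lay within 500 bp of 241 regions and within 1 kb of 428, and the median distance to the nearest was 6.33 kb. The part of depth in the absence of heart and lung regions was not tested.

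The limits of the rule fell inside a continuous range. Regions that met all other conditions but were shorter than 750 bp numbered 4852, the longest of 749 bp, and 14 were of 10 kb or more, the shortest of 10104 bp. The shortest regions kept had 750 bp, near Zdhhc17 and Lmo7, and the longest 9890 bp, near Dync1i2. A further 662 regions lay outside genes but within 5 kb, up to 4997 bp away, and the closest region kept was 5007 bp downstream of Atp2b1.

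The region with the most tags stood alone beside a gene with little Pol II in kidney. It held 302.0 tags over 8.18 kb (chr2:110222494-110230675), 33.4 kb downstream of Bbox1, which encodes the last enzyme of carnitine synthesis, and 46.8 kb from Ccdc34. Only 3.89% of the Bbox1 span was inside kidney regions, against 92.1% in liver. Its 36.9 tags per kb was also the highest density among the 2527 regions; kidney-only regions inside genes reached 49.7.

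Other heavily occupied regions lay beside genes with known roles in the tubule and beside genes without one. A region of 254.4 tags lay 33.4 kb upstream of Pkhd1, which encodes fibrocystin of the tubular cilium and is mutated in recessive polycystic kidney disease. Another of 204.0 tags lay 290 kb downstream of Tfap2b, a transcription factor gene of the distal nephron, in the long interval between Tfap2b and Pkhd1. The nearest liver region to it was 533 kb away and the nearest heart and lung regions 1280 kb. A region of 256.5 tags lay 61 kb from P3h2, which encodes a prolyl hydroxylase of basement membrane collagen, and 182 kb from the tight junction gene Cldn1. The remaining members of the 12 with the most tags had 208.0 to 283.6 tags, and their nearest genes were Gm44812, Dleu7, Hnmt, Lyplal1, Slc16a14, Dync1i2, Zc3h15 and Tmem64. Of these 12 nearest genes, 4 were covered at 50% or more of their span by kidney regions (P3h2, Zc3h15, Tmem64 and Tfap2b).

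The highest scores picked out other regions. The score is the caller's own and was used only within the kidney list, where kidney-only regions between genes ranged from 12 to 30.5. The highest, 30.5, belonged to a region of 1.24 kb and 32.9 tags that lay 60.2 kb upstream of Hspb3, a small heat shock protein gene of muscle, which was covered fully in heart and had no kidney region. The next 7 had scores of 23.5 to 29.0 and 17.5 to 66.6 tags, nearest to Tmx3, Gdf10, Zbtb10, Ntf3, Cyp2d12, Frem2 and Spindoc. Of these 8 nearest genes only Spindoc was covered at 50% or more in kidney (61.9%).

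The 2527 regions had 1369 different nearest protein-coding genes, which is 6.33% of the 21631 genes of chromosomes 1 to 19 and X. By the same rule 2260 heart-only, 2775 liver-only and 2478 lung-only regions had 5.44%, 6.89% and 6.08% of genes as their nearest. Of the 1369 genes, 847 had 1 kidney-only region, 437 had 2 to 4, 76 had 5 to 9 and 9 had 10 or more. The nearest gene is a label of place, and no file links a region to the gene it acts on.

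Genes of the tubule and of kidney transcription factors were frequent among these neighbours. Of 157 genes in 4 kidney lists, 42 (26.8%) were the nearest gene of a kidney-only region, against 6.33% of all genes, and 118 regions lay beside them. The same lists supplied 8 nearest genes of heart-only regions, 19 of liver-only regions and 15 of lung-only regions. Kidney transcription factors had the highest share, 16 of 47 (34%), followed by the proximal tubule with 13 of 50 (26%), the connecting tubule and collecting duct with 7 of 30 (23.3%) and the loop of Henle and distal convoluted tubule with 6 of 30 (20%). The shares were not adjusted for the length of gene-free sequence around each gene. The list of podocyte and juxtaglomerular genes, kept apart from these 4 lists, had 1 of 16 (6.25%), near the share of all genes, and a median of 3.59% of the span covered in kidney. The lists were drawn up with earlier results of the same data known.

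**Figure D2:**
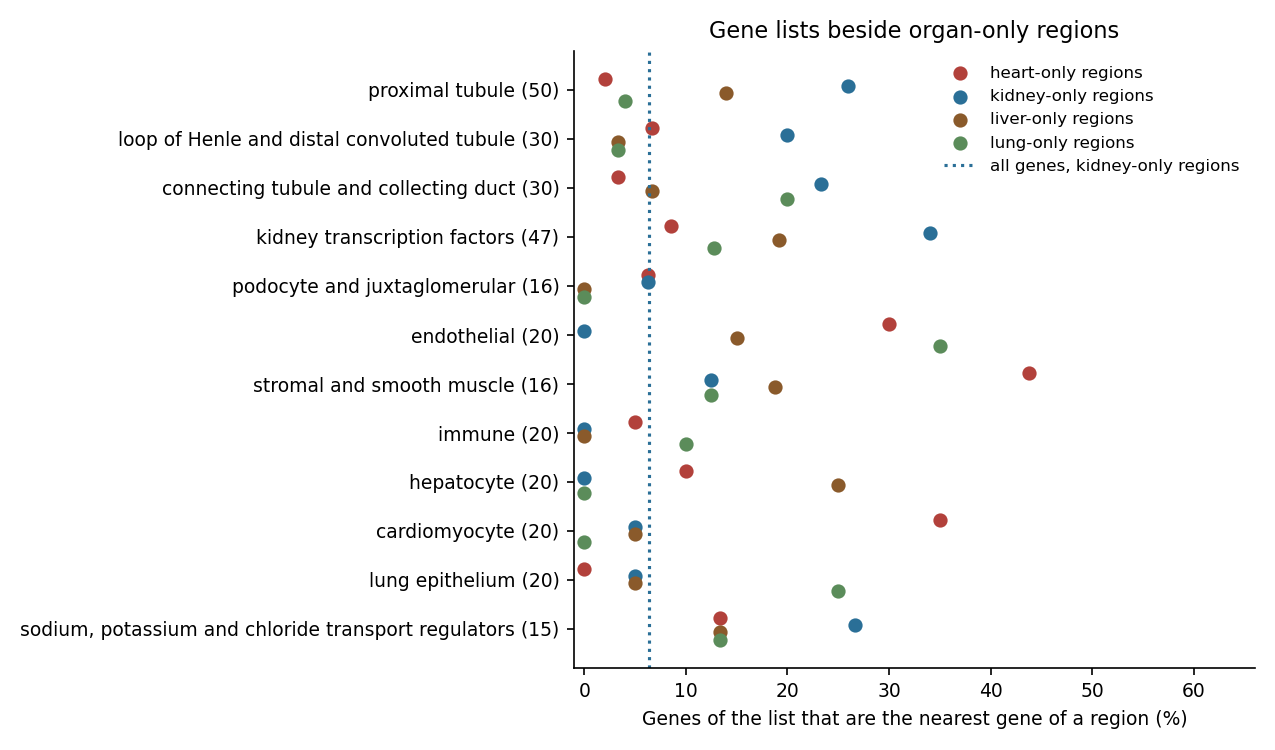
Share (%) of each gene list, with its number of genes in brackets, that was the nearest gene of an organ-only region between genes, 1 point per organ. The dotted line is the share of all genes for kidney-only regions (6.33%); the kidney points of the 4 nephron and transcription factor lists lie right of it at 20 to 34%, and those of the endothelial, immune and hepatocyte lists are at 0.

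Lists of other cell types ranged from no neighbours to a share above that of all genes (6.33%). None of the 20 endothelial, 20 immune and 20 hepatocyte genes was the nearest gene of a kidney-only region, whereas the endothelial list had 6 such genes for heart-only and 7 for lung-only regions and the hepatocyte list 5 for liver-only regions. Of 16 stromal and smooth muscle genes, Meis1 and Pdgfrb were neighbours (12.5%). The cardiomyocyte list of 20 contributed Nppb (5%), the gene of B-type natriuretic peptide, with a region of 87.7 tags 5.55 kb upstream. Nppb itself was covered fully in heart and had no region in kidney. Of 20 lung epithelial genes only Scgb3a2 was a neighbour (5%), with a region of 20.5 tags. In whole organs, fewer cells of a type and less polymerase per cell cannot be told apart.

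Proximal tubule genes had some of the neighbouring regions with the most tags, and tag count ranked regions much as length did. Per kilobase the Slc6a19 region had 25.8 tags and the Fut9 region with the most tags 19.7. The Cldn8 region with the most tags, in the connecting tubule and collecting duct list, had 19.8. Slc6a19, the apical transporter for neutral amino acids, had 1 region of 201.0 tags and 7.79 kb that lay 7.04 kb upstream, and the gene was covered fully in kidney and not at all in the other organs. Dab2, the adaptor that binds the endocytic receptor megalin, had 6 regions, all upstream at 41.5 to 218 kb, with 16.3 to 127.5 tags. Heart-only and liver-only regions were present beside Dab2 too, 2 of each. The Dab2 regions of 127.5 and 125.1 tags lay 0.293 and 1.1 kb from the nearest heart region. Slc22a12, the urate transporter URAT1, also had 6 regions, all upstream at 13.4 to 101 kb, with 17.8 to 96.1 tags and no organ-only region of the other 3 organs. Kap, an androgen-regulated gene of the proximal tubule, had 4 regions at 16.5 to 27.9 kb upstream with 17.5 to 108.2 tags. Fut9, a fucosyltransferase gene, had 4 regions with 13 to 166.7 tags, the strongest 5.5 kb away. Lrp2, the gene of megalin itself, had 1 of 24.1 tags 7.85 kb upstream.

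Most of these genes were themselves occupied in kidney, as was the list as a whole. Of the 13 proximal tubule neighbours 10 were covered at 50% or more, beside 21.4% of all genes, and the median over all 50 genes of the list was 94.9% of the span. The others were Cyp24a1, the vitamin D 24-hydroxylase gene, covered at 17.6% with regions of 136.8 and 88 tags, Slc7a13, an amino acid transporter gene covered at 20.1% with 3 regions of 35.6 to 58.8 tags, and Slco1a6, an organic anion transporter gene covered at 24.5% with 1 region of 12.1 tags. In heart, liver and lung no part of these 3 genes was inside a region.

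In the lists of later segments the highest tag counts were 52.1 (loop of Henle and distal tubule) and 61.8 (connecting tubule and collecting duct). Some transcription factor genes of those segments, such as Tfcp2l1 and Pou3f3, stand in their own list, whereas Foxi1 and Irx1 stand in the segment lists. In the loop of Henle and distal tubule list, Kcnj1, the apical potassium channel ROMK, had 1 region of 52.1 tags 10.2 kb downstream, and Kcnj16, a basolateral potassium channel subunit, had 4 with 17.5 to 49.1 tags. Cldn10, a tight junction gene of the thick ascending limb, had 4 regions, all upstream at 12.8 to 30.6 kb, with 15.1 to 25 tags. Egf, the epidermal growth factor gene expressed in the distal tubule, had 2 upstream regions of 27.4 and 30.7 tags. In the connecting tubule and collecting duct list, Cldn8 had 2 regions, the stronger of 61.8 tags at 8.47 kb. Rhcg, an ammonia transporter gene of intercalated and principal cells, had 3 upstream regions of 22.3 to 39.2 tags. Foxi1, the transcription factor gene of intercalated cells, had no kidney region over its own span and a single region of 10.8 tags 45.5 kb downstream.

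Transcription factor genes had 50 regions over 16 genes, the largest number among the 4 kidney lists. Of the 16 genes 13 were covered at 50% or more in kidney, beside 21.4% of all genes and a median of 81.2% of the span over the whole list of 47. Tfcp2l1, a factor gene of the collecting duct, had 7, all downstream between 6.46 and 59.3 kb, with 10.2 to 133.5 tags. Maf, a leucine zipper factor gene, had 8 at 44.5 to 270 kb with 9.34 to 49.1 tags, and 3 liver-only regions also lay beside it. Emx2, needed for the developing urogenital system, had 5 downstream at 55.9 to 164 kb with 13 to 72.9 tags. Pax2 and Pax8, paired-box genes that specify nephron epithelium, had 2 and 3, all upstream, the strongest of 149.5 tags at 16.1 kb from Pax2 and of 57.6 tags at 10.8 kb from Pax8. Pou3f3, a factor gene of the loop of Henle, had 4 regions, the strongest of 101.6 tags at 52.7 kb downstream, where it overlapped the lncRNA gene Dalir. The covered share was below 50% for Esrrg (27.1%), Sim1 (20.4%) and Grhl2 (5.71%).

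Outside the markers of segments, genes of ion transport and its control were among the neighbours. Of 15 genes for transport of sodium, potassium and chloride, 4 were nearest genes. Atp1b1, the beta subunit gene of the sodium pump, had 11 regions, all upstream at 16.5 to 154 kb, with 13.9 to 60.3 tags. Atp1b1 was covered at 50% or more in all 4 organs, so these kidney-only regions lay beside a gene that was occupied in each of them. Cul3 and Sgk1 had 1 region each, of 47.9 and 18.1 tags.

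The neighbours as a whole were occupied in kidney more often than genes at large, and in the other organs at about the background share. Of the 1369 nearest genes, 439 (32.1%, interval 29.6 to 34.6%) had 50% or more of the span inside kidney regions, against 21.4% of all genes. For the same genes the shares were 21.1% in liver (all genes 22.2%), 13.9% in heart (all 16.3%) and 13.7% in lung (all 15.3%). Nearest genes of kidney regions shared with another organ were covered in kidney more often still, 872 of 2213 (39.4%, interval 37.4 to 41.5%). Their shares were 37.1% in liver, 26.4% in heart and 26.9% in lung. Genes next to the other organs' own regions were likewise covered most often in that organ, 33.1% in liver for liver-only regions, 24.7% in heart for heart-only and 26.9% in lung for lung-only. Nearest genes covered in kidney alone numbered 167 (12.2%, all genes 3.55%), and 216 (15.8%, all genes 38.2%) had no kidney region at all. Region and gene come from the same library, so these shares are a description.

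**Figure D3:**
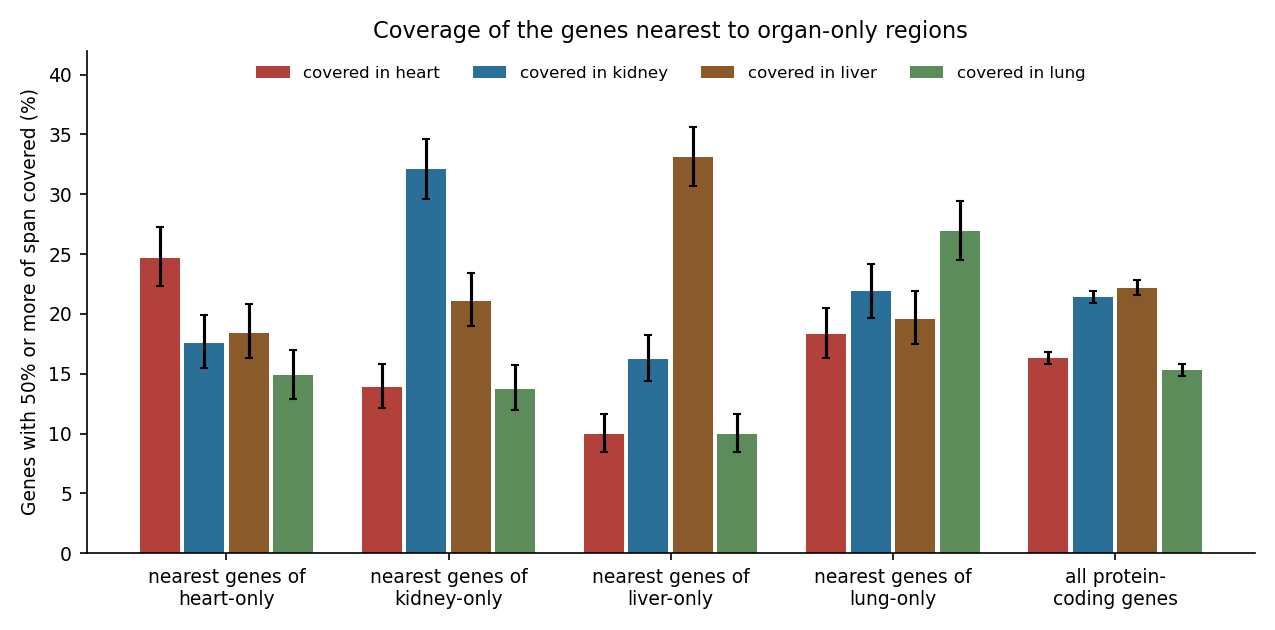
Share (%) of genes with 50% or more of the span covered by regions of each organ (bar colour), for the nearest genes of heart-only, kidney-only, liver-only and lung-only regions and for all genes; whiskers are 95% exact binomial intervals. For the nearest genes of kidney-only regions the kidney bar is 32.1% and the other 3 bars are 13.7 to 21.1%.

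The share of covered neighbours was somewhat lower for the regions farthest from genes, and the difference was not tested. The median distance to the nearest gene was 32.0 kb (quartiles 13.6 and 84.9 kb), beside 21.8 kb for kidney regions shared with another organ and 41.7, 36.7 and 27.1 kb for heart-only, liver-only and lung-only regions. The nearest gene was covered in kidney for 39.7% of the 895 regions at 5 to 20 kb and for 34.5% of the 531 regions beyond 100 kb (intervals 36.4 to 43% and 30.4 to 38.7%). Between these distances it was covered for 39.8% of the regions at 20 to 50 kb and for 38.2% of those at 50 to 100 kb. The 3 most distant regions lay 1360, 1510 and 1520 kb from Got2 in the interval between Got2 and Cdh8, with 13.6 to 22.3 tags. The strand of the nearest gene was known for 2021 regions, of which 1204 (59.6%, interval 57.4 to 61.7%) were upstream and 817 downstream. The upstream share was 53.1% for heart-only, 59.8% for liver-only and 58.6% for lung-only regions.

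**Figure D4:**
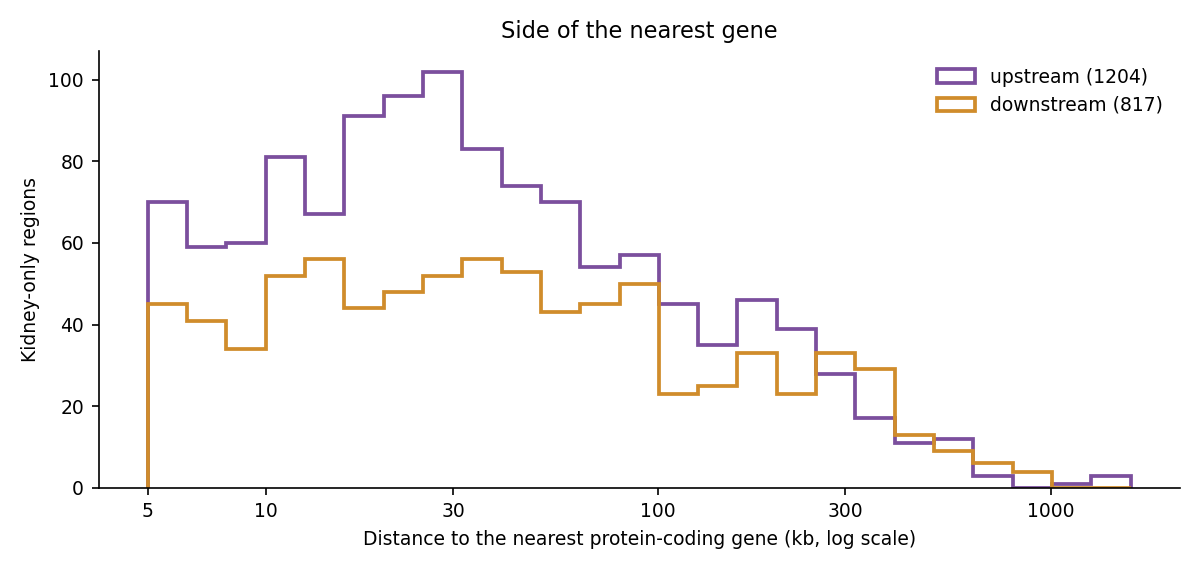
Number of kidney-only regions by distance to the nearest protein-coding gene (kb, log scale), for 1204 regions upstream and 817 regions downstream of it. The upstream line is above the downstream line at most distances below 200 kb.

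Some of the regions were linked to a gene by a run of other kidney regions. When kidney regions of any length with gaps of up to 5 kb were joined, 657 of the 2527 (26%, interval 24.3 to 27.8%) belonged to a run that reached a protein-coding gene. Of upstream regions 27.4% did and of downstream regions 21.9%. The nearest gene was covered for 56.2% of the linked regions and for 32.1% of the other 1870 (interval 30 to 34.3%). A run that reaches a gene places kidney regions at that gene, so the higher share follows in part from the definition. Whether linked regions are extended transcription of the gene or separate elements was not tested.

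Kidney-only regions often stood in groups. With gaps of up to 20 kb joined, 1398 (55.3%, interval 53.4 to 57.3%) lay in 493 groups of 2 or more and 512 (20.3%) in 95 groups of 4 or more, and 1129 stood alone. The share in groups was 53.5% for heart-only, 51.7% for liver-only and 54.5% for lung-only regions, and 69.5% for kidney regions shared with another organ. The largest group among heart-only, liver-only and lung-only regions had 14, 12 and 17 regions, the largest kidney-only group had 29, and that of kidney regions shared with another organ had 25.

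That group of 29 was spread over 192 kb of a gene desert on chromosome 7 (chr7:70780376-70972826), of which the regions took up 32.6%, with 1179.9 tags in all. No heart or lung region and 2 liver regions fell within it. It began 195 kb from Gm44812, a predicted protein-coding gene, and ended 1110 kb from Mctp2, and it touched the lncRNA genes Gm39032 and Gm42397. Its strongest region held 283.6 tags. Gm44812 was the nearest gene of 42 kidney-only regions in all, the most of any gene. On the other side of Gm44812 a second group of 13 regions with 475.4 tags lay between it and Nr2f2 (chr7:70375591-70450469). Within it fell 4 lung regions and none of heart or liver. Nr2f2 encodes the nuclear receptor COUP-TFII and was covered at 72.3 to 100% in all 4 organs. The lncRNA gene B130024G19Rik overlapped the Nr2f2 side of that group and ended inside it, at chr7:70411146.

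The next groups lay at loci of different kinds. A group of 13 with 389.7 tags lay between Hoxc4 and Smug1 (chr15:103045954-103140529), where 3 heart and 2 liver regions also fell. Hoxc4, a homeobox gene, was covered at 8.69% in kidney. A group of 12 with 692.9 tags began 6.29 kb from P3h2, which was covered at 75.2% in kidney and at no more than 1.16% elsewhere. A group of 9 with 474.8 tags lay between Abcb5 and the integrin gene Itgb8 (chr12:119058445-119103829), and Itgb8 was covered at 82.2% in kidney and below 1% elsewhere. Groups of 8 lay between Cdkn2aip and Cldn24 (413.2 tags) and between Pfn2 and Tsc22d2 (264.1 tags). The last of the 8 groups with the most regions had 7 with 394.6 tags, within the short interval between Vdr, the vitamin D receptor gene, and Tmem106c (chr15:97913643-97954859). No region of another organ fell within the last 3 of these groups. The rule had removed kidney regions that overlap another organ, so such absence follows in part from it.

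**Figure D5:**
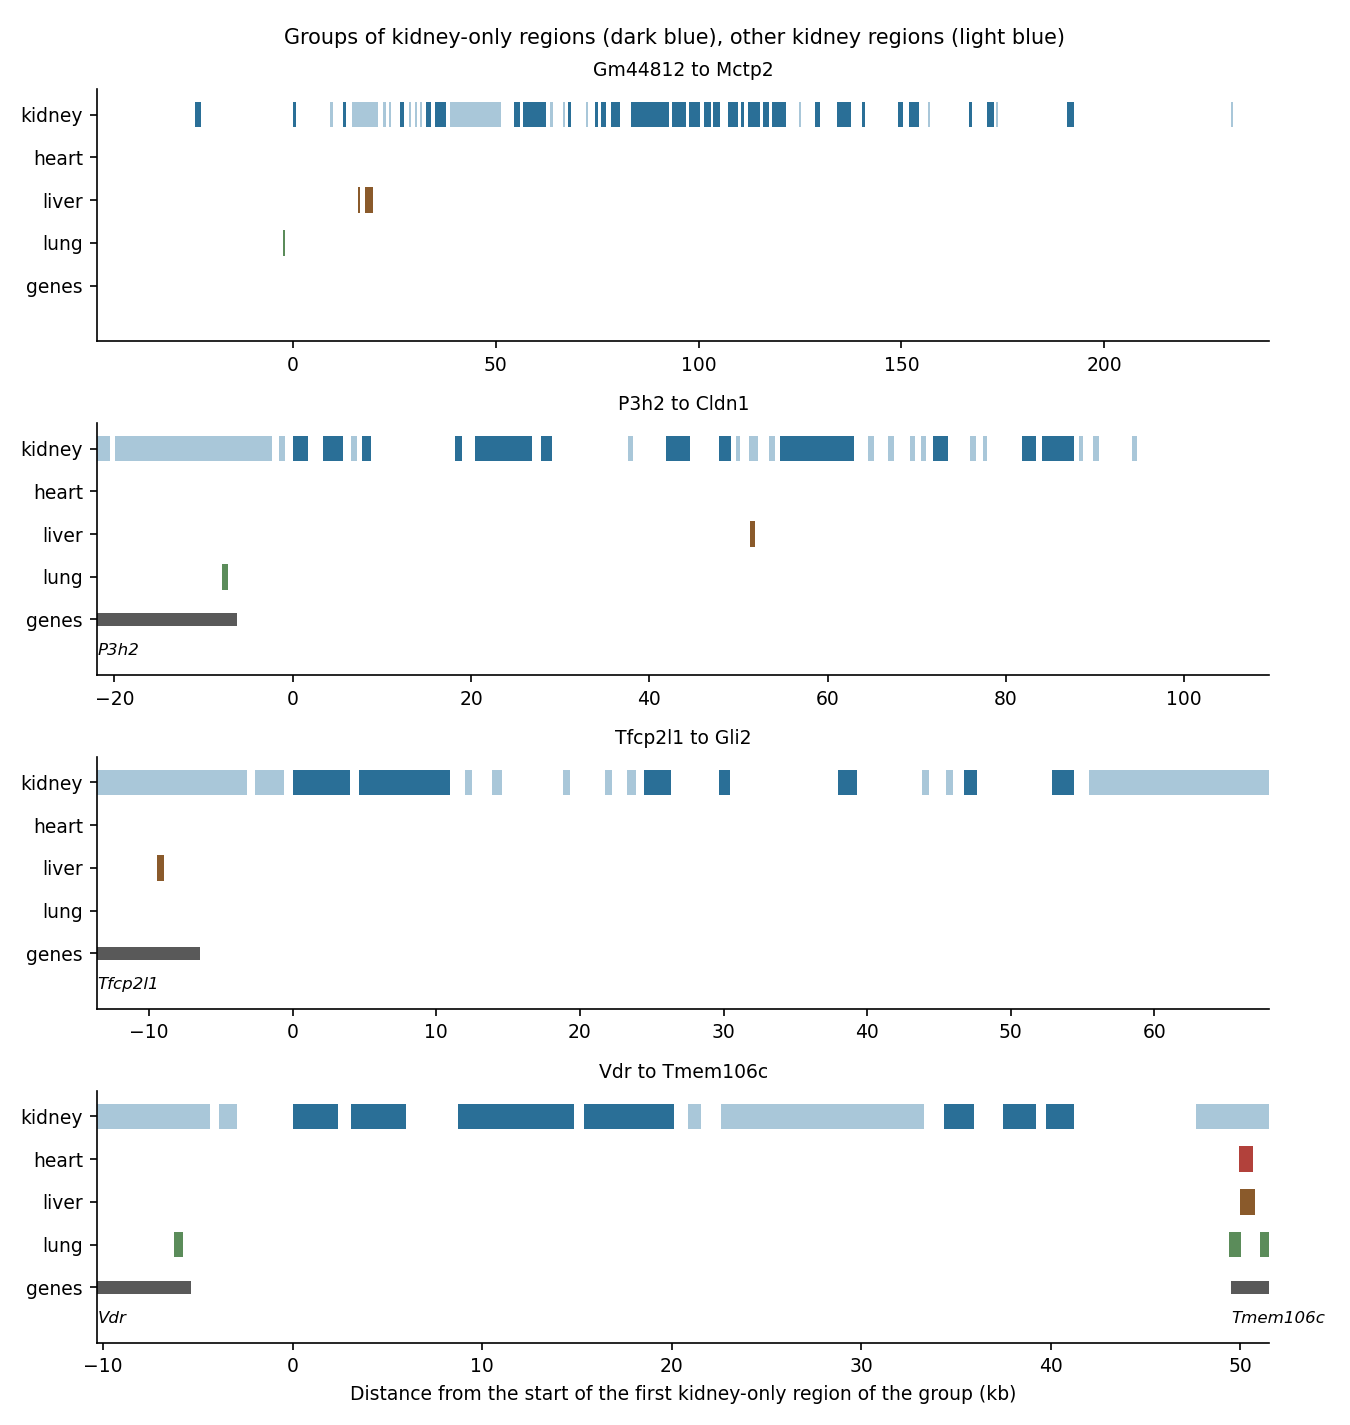
Regions of each organ (rows) at 4 groups of kidney-only regions, by distance in kb from the start of the group; dark blue marks kidney-only regions between genes, light blue other kidney regions, and grey bars protein-coding genes, cut at the panel edges. The groups hold 29, 12, 7 and 7 kidney-only regions, and few regions of the other organs lie within them. This follows in part from the rule, since each kidney-only region overlaps no region of another organ. The Tfcp2l1 group is outside the 8 groups named by rule. The groups of 13 are not drawn, and within them fell 4 lung regions (Nr2f2) and 3 heart and 2 liver regions (Hoxc4 to Smug1).

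Beside the genes named by rule, others with many regions were chosen after their values were seen. Hs6st1, a heparan sulfate sulfotransferase gene, had 11. Mylip, Jarid2 and Tns1 had 10 each, and those of Mylip had 557.6 tags in all and lay at 82.5 to 174 kb upstream. Myc had 9 at 129 to 510 kb with 16.3 to 52.7 tags, and 9 liver-only regions lay beside it as well. Car2, the carbonic anhydrase II gene, had 6, the strongest of 181.4 tags. Speer4f2 had 12, and it belongs to a multicopy family, where the placing of reads is uncertain.

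Non-coding genes were touched by 582 of the regions (23%, interval 21.4 to 24.7%). Of these, 534 (21.1% of all) overlapped an lncRNA gene, a share of 23.7% for heart-only, 20.4% for liver-only and 24.8% for lung-only regions and 28.4% for kidney regions shared with another organ. The regions touched 411 lncRNA genes, 105 of them with 2 or more regions. Among the 6455 lncRNA genes that themselves lie more than 5 kb outside protein-coding genes, 308 (4.77%) were touched.

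Most of the touched lncRNA genes were occupied over a minor part of their span, with a median of 22.3% inside kidney regions. Of the 308, 64 (20.8%, interval 16.4 to 25.7%) had 50% or more of the span inside kidney regions, against 6.63% of all 6455. A gene touched by a kidney region has some coverage by construction, so the difference is a description. The corresponding numbers were 4 in heart (1.3%, all lncRNA genes 5.24%), 8 in liver (2.6%, all 6.77%) and 0 in lung (all 5.38%), where the rule had removed overlapping regions. Wherever they lie, 30 of the 411 were covered in kidney at 50% or more and had no region in any other organ. The rule favours both conditions, and the share over all lncRNA genes was not computed, so the 30 are a description only.

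These 30 included several with strong regions. Slc6a19os, which overlaps Slc6a19, was covered at 59.5% with the region of 201.0 tags described for that gene. Gm39576, between Cybrd1 and Dync1i2, was covered at 77.6% with a region of 200.4 tags. Gm31183 (1.87 kb, between Gja5 and Acp6) and Gm12678 (5.4 kb, near Zcchc7) were covered fully, with regions of 177.5 and 156.7 tags. Gm34608 was covered fully by the region of 136.8 tags near Cyp24a1, so that region and the lncRNA share their place. Gm30944 (5.66 kb, near Fbxw7), Gm39742 (1.67 kb, near Slc30a1), Gm41061 (3.23 kb) and Gm35317 (4.19 kb, near Sestd1), whose starts are printed above, were also covered fully, with regions of 131.4, 116.3, 110.6 and 95.8 tags. Gm13652, covered at 56%, shared a region of 125.1 tags with the start of 2600014E21Rik, which runs the other way from a CpG-rich window with 21 CpG. None of these genes is known here beyond its annotation, and the lists carry no strand, so polymerase on the lncRNA strand cannot be told apart from polymerase on the other.

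Strong regions also fell in lncRNA genes that were covered in part or in other organs. Gm35201, near Lyplal1, held a region of 242.6 tags over its start and was covered at 29.7%. Gm33510, near Ahi1, was covered at 58.3% in kidney and 18% in liver. Gm29829 and Gm29883 shared a region of 208.0 tags near Tmem64 and were covered at 29.2% and 16.9% in liver. Of 6712 pseudogenes lying more than 5 kb out, 30 (0.447%) were touched, a share not adjusted for the length of the genes, and so were 2 snRNA genes, 1 snoRNA gene and 1 miRNA gene.

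The regions were spread over all 20 chromosomes examined. Per megabase of sequence more than 5 kb outside genes there were 1.78 on average, with 3.78 on chromosome 19, 2.69 on chromosome 13 and 0.29 on X. Kidney regions between genes of any kind were also few on X (86), and 39.5% of those were kidney-only, a share near the 34.9% over all chromosomes.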

How the data were processed

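Pol II regions from 1 list per organ were analysed (heart, kidney, liver and lung). The submitters' processing notes name Bowtie2 2.2.8, HOMER 4.8 and the build mm10. Regions were called with findPeaks in histone style (500 bp windows, Poisson p threshold 0.001, fragment length 78 bp), per the file headers, where no control library is named. The deposited signal is a tag count that the authors scaled to 10000000 tags, the deposited score is the caller's own, and region lengths were deposited as well. The deposited ratio (clonal fold change) was read and not used in a result.

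Distances, overlaps (1 bp) and covered spans were computed with Python 3.11.15, pandas 2.3.3, numpy 2.4.6 and scipy 1.17.1 from a table of 21631 protein-coding genes of GRCm38.p6 on chromosomes 1 to 19 and X. The interval code was checked on simulated data. Strand came from the RefSeq start windows, and 506 regions had a nearest gene without one. Of all start windows, 60.1% begin transcription at the 5′ end that the gene table gives, and the others are alternative starts. Motifs planned for the regions themselves were searched in start windows only, since sequence of the regions was not analysed here.

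Named regions were the 12 with the highest tag count, the 8 with the highest score, up to 12 over a non-coding gene, up to 24 beside a gene of the kidney lists, the 8 groups with most regions, the 3 farthest from a gene and those at the limits; among other list genes, those given were chosen after their values were seen. The members, the gene lists and the tests were chosen with earlier results of these data known. Joined runs, length classes and start windows inside regions were added after the data were seen. Alternatives covered the distance from genes, the overlap, tag count, score, length, join gap and covered share. Some genes of the lists are not reported here.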

Additional observations from a re-analysis of the deposited data

How the results depend on the processing

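The member count of 2527 stayed between 2099 and 2934 with genes 2 or 10 kb away, other overlap rules, minimum tag counts and no upper length limit. It was 1615 with kidney regions in the top 50% of scores and 1009 with regions of 1500 bp or longer. The share over a non-coding gene (23%) was 25% for regions of 1500 bp or longer and 25.7% within 1 kb of such a gene. The share with a covered nearest gene (38.4% of regions) was 36.1% for regions of 1500 bp or longer, and 56% or 24.6% with the covered share set at 25% or 75%. The share in groups (55.3%) was 43.2% with the top 50% of scores, 57.8% when regions of the other organs needed 10 tags, 38.4% for regions of 1500 bp or longer, and 40.3% or 65.1% with join gaps of 5 or 50 kb. Fewer regions, or a wider gap, change grouping by construction. Kidney list genes numbered 32 to 56 around the 42 reported, while the number of all nearest genes changed too. They were 32 of 692 nearest genes for regions of 1500 bp or longer, 42 of 1369 as reported and 56 of 2278 with both flanking genes. No paired analysis was possible because each organ has 1 list. The stated thresholds limit how the absence of regions in heart and lung can be read. In these organs 62.9% and 39.6% of the regions had a mean kidney density below the stated threshold. The part of depth was not tested.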
